A study of Mus musculus with 14 samples.

Results

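Of 47729 genes counted, 10 solute carrier genes that move amino acids across kidney tubule cells were followed through obstruction of the mouse kidney. They were Slc3a1, Slc3a2, Slc6a18, Slc6a19, Slc6a20a, Slc7a5, Slc7a7, Slc7a8, Slc7a9 and Slc7a13, taken by symbol through their Ensembl identifiers, and all 10 passed the filter on low counts. The series sequenced messenger RNA of whole kidney in 14 libraries to ask how unilateral ureteral obstruction (UUO, the tying-off of one ureter, which leads to fibrosis) acts on the kidney with and without a SMOC2 transgene. SMOC2 is a secreted matrix protein that binds calcium. There were 4 libraries of SMOC2 transgenic kidney 7 days after UUO (SMOC2 UUO), 3 of untreated SMOC2 transgenic kidney (SMOC2 normal), 4 of wild-type kidney 7 days after UUO (WT UUO) and 3 of untreated wild-type kidney (WT normal). The labels give no promoter for the transgene and no age, and they do not say that every library is its own animal, so a p-value speaks only of spread among libraries, part of which may be technical. A treatment protocol filed with the samples speaks of folic acid in male Balb/c mice, which goes against the treatment labels, and the treatment labels were used.

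The proximal tubule takes back most of the amino acids that the glomerulus filters. At the luminal membrane, sodium-driven carriers of the SLC6 family take up neutral amino acids and proline, and a pair of proteins, rBAT and b0,+AT, exchanges cystine and dibasic amino acids. At the opposite membrane, exchangers built from the heavy chain 4F2hc and a light chain release them towards the blood, and inherited loss of such carriers gives cystinuria, Hartnup disorder or lysinuric protein intolerance.

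In GENCODE M21 on GRCm38 (mm10), each of the 10 is annotated as a protein-coding gene. Slc3a1 lies at chr17:85028376-85064236, Slc7a9 at chr7:35448796-35466036 and Slc7a13 at chr4:19818725-19842218, all on the plus strand. The other 7 lie on the minus strand: Slc6a18 at chr13:73661752-73678023, Slc6a19 at chr13:73679745-73704865, Slc6a20a at chr9:123634770-123678885, Slc3a2 at chr19:8706882-8723369, Slc7a5 at chr8:121881150-121907694, Slc7a7 at chr14:54369442-54417780 and Slc7a8 at chr14:54722209-54781946. Slc6a18 and Slc6a19 are neighbours with 1721 bases between them, and Slc7a7 and Slc7a8 are 304 kb apart.

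RefSeq promoter windows, each with 250 bases before and 50 bases after a start site (build GRCm38.p6), were found for 7 of the 10 genes, in 12 windows. Those of 4 genes are shown, in the direction of transcription. Slc3a1 and Slc7a9 encode the partner chains of one transporter and fell together, Slc7a7 holds one of the motifs searched, and Slc6a20a is the member that was not called. Capitals mark a motif match. The windows are chr17:85028097-85028396 (plus strand) for Slc3a1, chr7:35448842-35449141 (plus strand) for Slc7a9, chr14:54417653-54417952 (minus strand) for Slc7a7 and chr9:123678783-123679082 (minus strand) for Slc6a20a.
Slc3a1: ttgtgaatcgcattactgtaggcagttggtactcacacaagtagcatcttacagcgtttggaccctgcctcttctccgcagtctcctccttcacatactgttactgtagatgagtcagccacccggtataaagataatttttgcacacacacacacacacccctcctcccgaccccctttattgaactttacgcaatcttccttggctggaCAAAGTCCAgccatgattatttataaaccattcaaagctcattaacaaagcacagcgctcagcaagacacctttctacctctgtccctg
Slc7a9: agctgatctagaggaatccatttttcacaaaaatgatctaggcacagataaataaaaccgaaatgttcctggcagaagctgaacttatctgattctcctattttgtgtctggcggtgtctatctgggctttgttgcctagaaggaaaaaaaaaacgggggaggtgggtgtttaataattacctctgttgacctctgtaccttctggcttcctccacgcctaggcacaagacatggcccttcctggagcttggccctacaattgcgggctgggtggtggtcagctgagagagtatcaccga
Slc7a7: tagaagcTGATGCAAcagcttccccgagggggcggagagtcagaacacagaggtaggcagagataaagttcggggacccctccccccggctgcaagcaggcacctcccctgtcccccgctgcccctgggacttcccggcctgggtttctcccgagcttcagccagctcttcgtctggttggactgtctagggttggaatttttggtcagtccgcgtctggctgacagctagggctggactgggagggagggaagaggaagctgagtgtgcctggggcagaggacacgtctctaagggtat
Slc6a20a: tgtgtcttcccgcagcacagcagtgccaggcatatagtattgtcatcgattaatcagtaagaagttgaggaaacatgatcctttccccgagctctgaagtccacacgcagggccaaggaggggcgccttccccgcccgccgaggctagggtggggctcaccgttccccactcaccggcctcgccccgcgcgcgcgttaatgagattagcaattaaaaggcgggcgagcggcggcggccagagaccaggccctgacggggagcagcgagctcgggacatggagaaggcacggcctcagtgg
The motifs, searched on both strands, were CAAAGTCCA (HNF4), the HNF1 motif, TGATGCAA (the core of the C/EBP-ATF element) and CACGTG (E-box). CAAAGTCCA began 39 bases before the start site of Slc3a1, and 0.475% of all 32851 windows of this length hold it. TGATGCAA stood 243 bases before the start site in the Slc7a7 window shown. The same letters lie 1 base before another Slc7a7 start site, whose window overlaps this one, and 0.895% of all windows hold them. No window of the members held the HNF1 motif (0.00913% of all windows) or CACGTG (7.15%), and no match overlapped that of another motif. A match is a stretch of letters, and binding was not measured.

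Total counts ran from 19483994 to 30033405 per library. Smoc2, the gene of the transgene, stood at 124, 89.9, 83.9 and 87.1 CPM in SMOC2 UUO, against 150.4, 131, 158 and 148 CPM in WT UUO libraries. Every SMOC2 UUO library lay below every WT UUO library, as for 4.43% of all genes (log2 fold change -0.61, edgeR adjusted p = 0.389). SMOC2 normal libraries had 27.8, 26.9 and 10.6 CPM of Smoc2, against 12.6, 19.7 and 43.3 CPM in WT normal libraries (-0.22, edgeR adjusted p = 0.85). Smoc2 was thus not higher in the libraries labelled transgenic. SMOC2 below therefore means the libraries labelled so. CPM are counts set against the library size after scaling by trimmed mean of M-values. None of 24 proximal tubule markers was at 0 in any library. The same held for the macrophage and T cell markers below, so this cannot test the kidney label.

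After obstruction most of these transporters fell and one rose. In SMOC2 kidneys 8 of the 10 genes fell, Slc7a5 rose and Slc6a20a was not called (edgeR's quasi-likelihood test, adjusted p under 0.05 over all 17926 genes tested). In WT kidneys the same 8 genes fell, Slc7a5 rose and Slc6a20a was not called. Over all genes tested, 62.8% were called in SMOC2 kidneys (30.4% lower, 32.5% higher) and 61.1% in WT kidneys (29.8% lower, 31.3% higher). The median log2 fold change of the 10 genes was -1.85 in SMOC2 and -1.96 in WT kidneys, beside 0.04 and 0.05 over all genes tested. The members and the gene lists below were chosen with earlier results of these data known. Their contrast with all genes is therefore a description. Libraries did not overlap between UUO and normal for 8 falling genes in SMOC2 and 7 in WT kidneys, and for Slc7a5 above normal in both. By this count 30.1% of all genes lay lower and 32.6% higher in SMOC2 kidneys, and 29.5% and 31.3% in WT kidneys. In whole tissue, fewer cells of a type and less RNA per cell cannot be told apart.

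**Figure D1:**
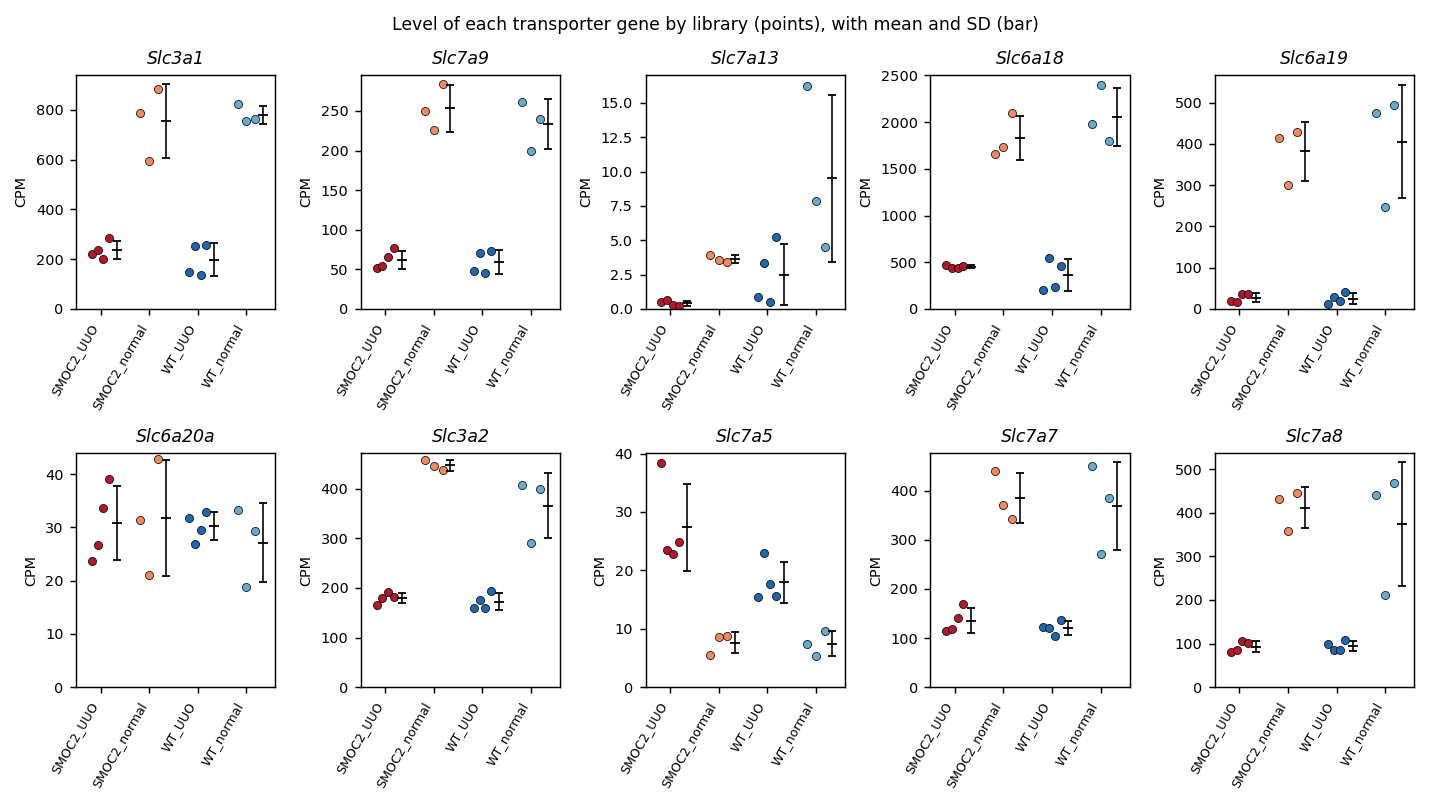
CPM of each of the 10 genes in every library (points) with the group mean and SD (bars), SMOC2 UUO, SMOC2 normal, WT UUO and WT normal from left to right, each panel with its own linear axis from 0. Slc7a5 is the one gene with all UUO points above all normal points of its genotype, and the points of Slc6a20a overlap in both genotypes.

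Other cells moved with these changes, and their part in the results was not tested. All 24 proximal tubule markers fell in both genotypes, with median log2 fold changes of -2.96 in SMOC2 and -3.03 in WT kidneys. Their summed level was 5552 to 8616 CPM in SMOC2 UUO, against 45150 to 51580 CPM in SMOC2 normal, and 3762 to 9007 CPM in WT UUO, against 43880 to 48090 CPM in WT normal libraries. Markers of the loop, distal tubule and collecting duct fell for 14 of 16 in SMOC2 and 13 of 16 in WT kidneys. Macrophage markers rose for 11 of 12 genes in SMOC2 (summed 1570 to 2425 CPM in UUO, against 231.5 to 275 CPM in normal) and 12 of 12 in WT kidneys (1996 to 2227 CPM in UUO, against 219 to 252.5 CPM in normal). T cell markers rose for 8 of 10 genes in SMOC2 and 9 of 10 in WT kidneys. Their sums were low, at 44.3 to 70.1 CPM in SMOC2 UUO, against 10.2 to 20.4 CPM in SMOC2 normal, and 34.9 to 72.2 CPM in WT UUO, against 6.65 to 13.8 CPM in WT normal libraries. All 9 fibroblast markers rose in both genotypes, to 3734 to 5094 CPM in SMOC2 UUO, against 193.5 to 391 CPM in SMOC2 normal, and 2837 to 5027 CPM in WT UUO, against 256 to 582 CPM in WT normal libraries. Of 8 endothelial markers, 2 rose and 3 fell in SMOC2 kidneys and 4 fell in WT kidneys. Tubular injury markers rose for 8 of 9 genes in SMOC2 and 9 of 9 in WT kidneys. Each marker of these lists had counts in at least 1 library of every group.

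RNA of both chains of the luminal cystine transporter fell. In SMOC2 kidneys, Slc3a1 stood at 220.4, 237, 200.2 and 286 CPM after UUO, against 789, 594 and 884 CPM in normal libraries. WT kidneys had 147, 251, 135 and 258 CPM of Slc3a1 after UUO, against 821, 755 and 763 CPM in normal libraries. No UUO library of Slc3a1, the heavy chain rBAT, reached the lowest normal library of its genotype. The log2 fold change was -1.68 (SE 0.22, adjusted p = 1.37e-05) in SMOC2 and -1.98 (SE 0.222, adjusted p = 3.32e-06) in WT kidneys, that is 3.2-fold lower and 3.94-fold lower. Within WT UUO, libraries 2 and 4 lay well above libraries 1 and 3, the same pair in which the proximal tubule markers summed highest (7066 and 9007 CPM, against 3762 and 3873 CPM).

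Slc7a9, the light chain b0,+AT that pairs with rBAT, fell as well. In SMOC2 kidneys, Slc7a9 stood at 51.7, 54.3, 65.8 and 76.6 CPM after UUO, against 250.4, 226 and 284 CPM in normal libraries. WT kidneys had 47.4, 71.2, 44.9 and 73 CPM of Slc7a9 after UUO, against 261, 199 and 239.8 CPM in normal libraries. Again the groups did not overlap, and WT UUO libraries 2 and 4 were the higher ones. This came to a log2 fold change of -2.03 (SE 0.187, adjusted p = 4.93e-07) in SMOC2 and -1.98 (SE 0.187, adjusted p = 7.01e-07) in WT kidneys, that is 4.08-fold lower and 3.95-fold lower. Per library, the log2 ratio of Slc7a9 to Slc3a1 averaged -1.93 in SMOC2 UUO, against -1.56 in SMOC2 normal, and -1.71 in WT UUO, against -1.75 in WT normal libraries. Averaged over the genotypes, the ratio differed by -0.17 between UUO and normal, a difference that did not exceed the spread (two-sided exact permutation test within genotype over 1225 arrangements, p = 0.147, Benjamini-Hochberg adjusted over 8 ratios 0.147, smallest possible p 0.00163). The difference was -0.367 in SMOC2 and 0.035 in WT kidneys, and libraries overlapped in both. Whether the genotypes differed in this ratio was not tested.

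Slc7a13, the light chain AGT1 that also pairs with rBAT and carries aspartate, glutamate and cystine in the last stretch of the mouse proximal tubule, was scarce. In SMOC2 kidneys, Slc7a13 stood at 0.498, 0.634, 0.283 and 0.203 CPM after UUO, against 3.94, 3.55 and 3.44 CPM in normal libraries. WT kidneys had 0.898, 3.37, 0.495 and 5.21 CPM of Slc7a13 after UUO, against 16.3, 7.83 and 4.48 CPM in normal libraries. The SMOC2 values after UUO rest on 16, 16, 8 and 5 counts. SMOC2 groups did not overlap, while in WT kidneys UUO library 4 lay above normal library 3. On the log2 scale the change was -3.15 (SE 0.714, adjusted p = 0.00152) in SMOC2 and -1.94 (SE 0.609, adjusted p = 0.013) in WT kidneys, that is 8.86-fold lower and 3.84-fold lower. Without WT normal replicate 1 the WT change was -1.31 and no longer called (edgeR adjusted p = 0.105), and without WT UUO replicate 4 it was -2.57. The log2 ratio of Slc7a13 to Slc3a1 differed by -0.90 between UUO and normal (exact permutation p = 0.0833, adjusted 0.0952), with SMOC2 UUO below SMOC2 normal and overlapping WT libraries. It passed 0.05 without WT normal replicate 3 (-1.12, exact permutation p = 0.0419) and without WT UUO replicate 4 (-1.10, exact permutation p = 0.0343).

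The SLC6 carriers of the brush border divided into one that fell steeply, one that fell less, and one that was not called. Slc6a19, the carrier B0AT1 for neutral amino acids that is altered in Hartnup disorder, had the lowest log2 fold change of the 10 genes in both genotypes. In SMOC2 kidneys, Slc6a19 stood at 18.9, 16.5, 37.3 and 37.1 CPM after UUO, against 415, 299.8 and 429 CPM in normal libraries. WT kidneys had 11.2, 29.1, 18.9 and 41.2 CPM of Slc6a19 after UUO, against 474, 248 and 493 CPM in normal libraries. The highest UUO library lay far under the lowest normal one, WT normal library 2, which was itself low among the normal libraries. In edgeR the log2 fold change was -3.80 (SE 0.418, adjusted p = 2.60e-06) in SMOC2 and -4.01 (SE 0.422, adjusted p = 1.86e-06) in WT kidneys, that is 13.9-fold lower and 16.2-fold lower.

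Slc6a18, the neighbour of Slc6a19 and a carrier of glycine and other neutral amino acids, kept a larger share of its RNA. In SMOC2 kidneys, Slc6a18 stood at 466, 442, 441 and 461 CPM after UUO, against 1660, 1733 and 2096 CPM in normal libraries. WT kidneys had 201, 545, 238 and 463 CPM of Slc6a18 after UUO, against 1976, 2399 and 1793 CPM in normal libraries. The 4 SMOC2 UUO libraries lay close together, while WT UUO libraries 1 and 3 were low and 2 and 4 high. As a log2 fold change this was -2.02 (SE 0.274, adjusted p = 1.88e-05) in SMOC2 and -2.51 (SE 0.277, adjusted p = 2.93e-06) in WT kidneys, that is 4.04-fold lower and 5.69-fold lower. The log2 ratio of Slc6a18 to Slc6a19 averaged 4.14 in SMOC2 UUO, against 2.27 in SMOC2 normal, and 3.88 in WT UUO, against 2.4 in WT normal libraries. It was higher after UUO by 1.68 (exact permutation p = 0.00163, the smallest possible, adjusted 0.00261), and the libraries did not overlap in either genotype.

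Slc6a20a, the carrier of proline and other imino acids, was not called. In SMOC2 kidneys, Slc6a20a stood at 23.8, 26.8, 33.7 and 39.1 CPM after UUO, against 31.4, 21.1 and 42.8 CPM in normal libraries. WT kidneys had 31.7, 27, 29.5 and 32.8 CPM of Slc6a20a after UUO, against 33.3, 18.9 and 29.2 CPM in normal libraries. UUO and normal libraries overlapped in both genotypes. Its change was -0.04 on the log2 scale (95% interval -0.55 to 0.46, adjusted p = 0.88) in SMOC2 kidneys, turning to 0.075 with upper-quartile scaling. In WT kidneys it was 0.15 (95% interval -0.35 to 0.65, adjusted p = 0.596). A doubling or a halving lies outside both intervals, and smaller changes do not. Relative to Slc6a19, the log2 ratio of Slc6a20a was higher after UUO by 4.08, without overlap in either genotype (exact permutation p = 0.00163, adjusted 0.00261). This is no separate evidence, since the same libraries gave the fall of Slc6a19 beside the uncalled Slc6a20a. Its paralog Slc6a20b fell, with 44.9 ± 9.49 CPM in SMOC2 UUO, against 369 ± 46 CPM in SMOC2 normal libraries, and 39.9 ± 17.9 CPM in WT UUO, against 340.5 ± 25.4 CPM in WT normal libraries (SD, n = 4 UUO and 3 normal; log2 fold changes -3.04 and -3.10, adjusted p = 5.24e-07 and 5.28e-07). Slc6a20a shares 26.7% of its 50-base stretches with other genes, 15.3% with Slc6a20b, so how reads were split between the copies is uncertain.

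Cltrn (collectrin), which brings B0AT1 to the membrane in the kidney, fell less than its client. In SMOC2 kidneys, Cltrn stood at 302, 347, 378 and 402 CPM after UUO, against 1363, 1368 and 1348 CPM in normal libraries. WT kidneys had 280.2, 343, 302 and 498 CPM of Cltrn after UUO, against 1493, 1711 and 1518 CPM in normal libraries. Every UUO library lay below every normal one. The log2 fold change was -1.93 (SE 0.169, adjusted p = 3.12e-07) in SMOC2 and -2.15 (SE 0.17, adjusted p = 1.52e-07) in WT kidneys, that is 3.81-fold lower and 4.42-fold lower. The log2 ratio of Slc6a19 to Cltrn was lower after UUO by 1.93 (that is, -1.93; exact permutation p = 0.00163, adjusted 0.00261), with no overlap in either genotype.

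Of the exchangers built on 4F2hc, the heavy chain and the light chains Slc7a7 and Slc7a8 fell, and the light chain Slc7a5 rose. Slc3a2 encodes 4F2hc (CD98). In SMOC2 kidneys, Slc3a2 stood at 166, 181, 192 and 182 CPM after UUO, against 457, 447 and 437 CPM in normal libraries. WT kidneys had 160, 176, 159 and 194 CPM of Slc3a2 after UUO, against 408, 290.2 and 399.6 CPM in normal libraries. The UUO libraries lay within a narrow band under all normal libraries, of which WT normal library 2 was the lowest. This came to a log2 fold change of -1.31 (SE 0.114, adjusted p = 2.98e-07) in SMOC2 and -1.09 (SE 0.114, adjusted p = 1.85e-06) in WT kidneys, that is 2.48-fold lower and 2.12-fold lower.

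Slc7a8 is the light chain LAT2, an exchanger of neutral amino acids. In SMOC2 kidneys, Slc7a8 stood at 80, 85.3, 105 and 101 CPM after UUO, against 431, 358 and 445 CPM in normal libraries. WT kidneys had 98.5, 85.9, 86 and 109 CPM of Slc7a8 after UUO, against 442, 211 and 469 CPM in normal libraries. No libraries overlapped, although WT normal library 2 had less than any other normal library. On the log2 scale the change was -2.15 (SE 0.216, adjusted p = 1.09e-06) in SMOC2 and -1.98 (SE 0.215, adjusted p = 2.52e-06) in WT kidneys, that is 4.43-fold lower and 3.94-fold lower. Its log2 ratio to Slc3a2 was lower after UUO by 0.83 (as a difference, -0.83; exact permutation p = 0.00163, adjusted 0.00261), and the libraries of UUO lay below normal in both genotypes.

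Slc7a7 is the light chain y+LAT1, which exports dibasic amino acids and is altered in lysinuric protein intolerance; it is also known from macrophages. In SMOC2 kidneys, Slc7a7 stood at 114, 118, 141 and 169.8 CPM after UUO, against 440.3, 370.1 and 342 CPM in normal libraries. WT kidneys had 122, 119.7, 103 and 138 CPM of Slc7a7 after UUO, against 449.7, 272 and 385 CPM in normal libraries. All UUO libraries lay under all normal ones. In edgeR the log2 fold change was -1.5 (SE 0.174, adjusted p = 4.27e-06) in SMOC2 and -1.61 (SE 0.175, adjusted p = 2.46e-06) in WT kidneys, that is 2.83-fold lower and 3.06-fold lower. Set against Slc3a2, its log2 ratio differed by -0.36 between UUO and normal (exact permutation p = 0.00653, adjusted 0.00871), with overlapping libraries in SMOC2 kidneys.

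Slc7a5 is the light chain LAT1, which takes up leucine and other large neutral amino acids and is known from dividing and activated cells. In SMOC2 kidneys, Slc7a5 stood at 38.5, 23.5, 22.8 and 24.8 CPM after UUO, against 5.51, 8.6 and 8.75 CPM in normal libraries. WT kidneys had 15.4, 23.1, 17.6 and 15.6 CPM of Slc7a5 after UUO, against 7.41, 5.31 and 9.7 CPM in normal libraries. Every UUO library was above every normal library, and SMOC2 UUO library 1 stood above the other 3. As a log2 fold change this was 1.84 (SE 0.253, adjusted p = 2.13e-05) in SMOC2 and 1.25 (SE 0.248, adjusted p = 5.44e-04) in WT kidneys, that is 3.59-fold higher and 2.39-fold higher. Its log2 ratio to Slc3a2 averaged -2.75 in SMOC2 UUO, against -5.90 in SMOC2 normal, and -3.28 in WT UUO, against -5.64 in WT normal libraries. The difference of 2.76 between UUO and normal did not depend on scaling between libraries (exact permutation p = 0.00163, the smallest possible, adjusted 0.00261). Otherwise it restates the rise of Slc7a5 and the fall of Slc3a2 in the same libraries. Slc7a5 rose in the same kidneys as the macrophage, T cell, fibroblast and tubular injury markers above, and their part in its rise was not tested.

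**Figure D2:**
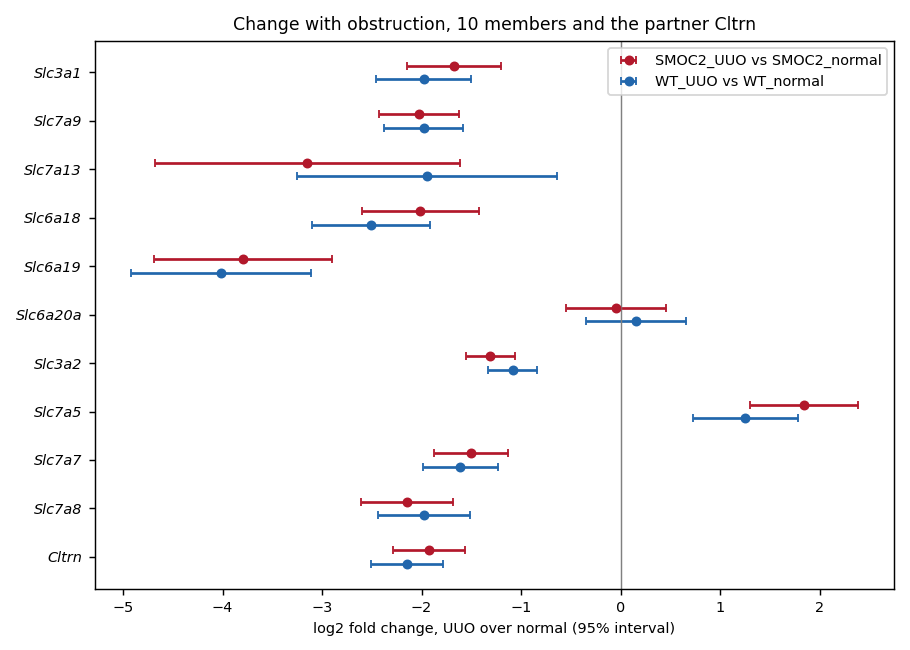
Log2 fold change of UUO over normal with its 95% interval for the 10 genes and Cltrn, SMOC2 kidneys above WT kidneys in each pair. Slc6a19 lies farthest to the left (-3.80 in SMOC2, -4.01 in WT) and Slc7a5 is the one gene right of 0 with its whole interval in both genotypes.

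**Figure D3:**
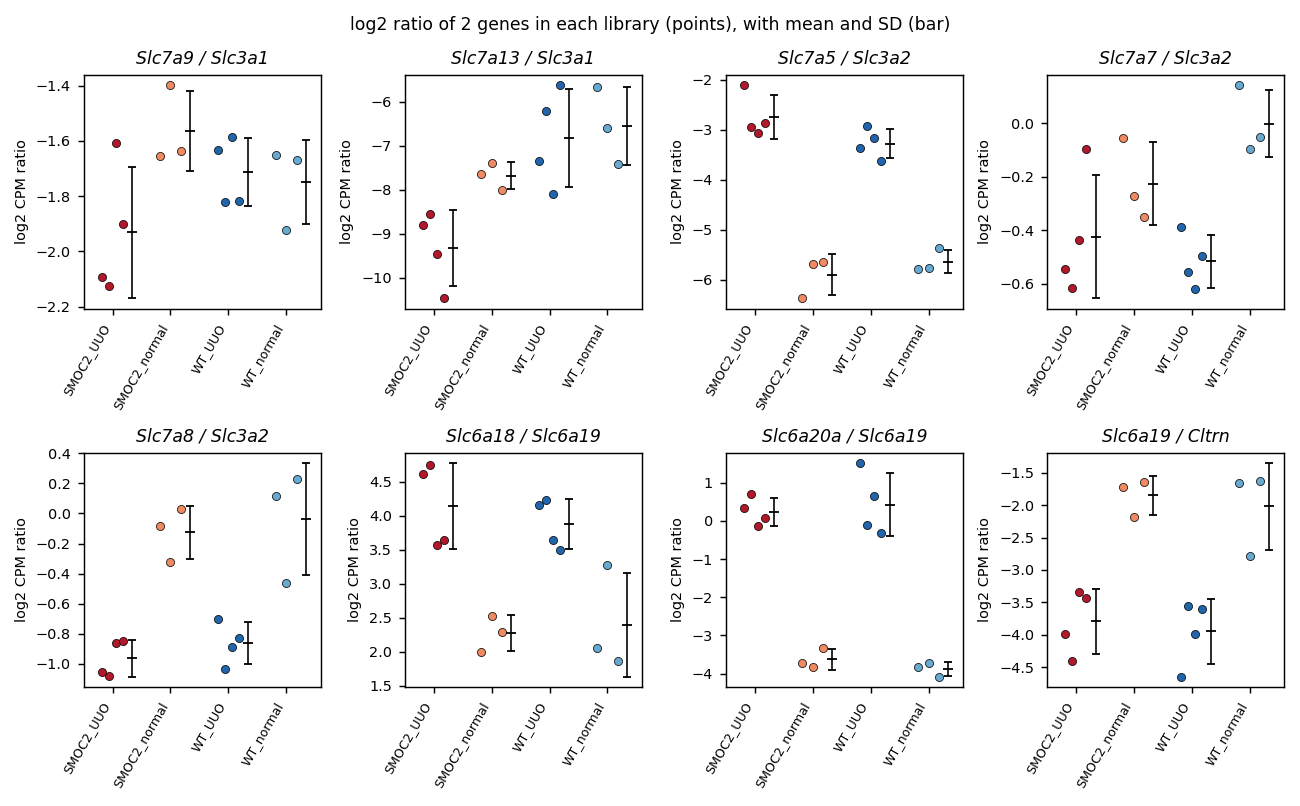
Log2 ratio of the CPM of 2 genes in every library (points) with mean and SD (bars), one panel per ratio, groups from left to right as SMOC2 UUO, SMOC2 normal, WT UUO and WT normal. The ratios of Slc7a5 to Slc3a2, Slc6a18 to Slc6a19 and Slc6a20a to Slc6a19 are higher in every UUO library than in any normal library of its genotype, and the ratio of Slc7a9 to Slc3a1 overlaps.

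Genes can be compared with each other only per length, here as CPM per kb of exon. In SMOC2 UUO kidneys Slc3a1 led with 104 ± 16.2 CPM per kb and Slc6a18 followed with 102 ± 2.91, and their libraries overlapped. In SMOC2 normal kidneys Slc6a18 led with 414 ± 52.9 CPM per kb before Slc3a1 with 333 ± 65.0, again with overlap (SD, n = 4 UUO and 3 normal). In WT UUO kidneys these genes had 81.8 ± 38.1 for Slc6a18 and 87.1 ± 29.0 CPM per kb for Slc3a1, which overlapped. In WT normal kidneys the 2 genes had 465 ± 70.3 and 343 ± 15.9 CPM per kb, which did not overlap. The means of both stood above those of all other members in each group, and in WT UUO kidneys the libraries of Slc6a18 overlapped those of the gene that came next, Slc3a2. In the other groups the libraries of both lay above those of the gene that came next, which was Slc3a2 in SMOC2 kidneys and Slc7a7 in WT normal kidneys.

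Behind them, in SMOC2 UUO kidneys, came Slc3a2 (51.0 CPM per kb), Slc7a7 (40.9), Slc7a9 (23.2), Slc7a8 (18.6), Slc6a20a (7.55), Slc7a5 (7.39), Slc6a19 (5.49) and Slc7a13 (0.189). Neighbours in this order overlapped for Slc3a2 and Slc7a7, for Slc7a9 and Slc7a8, and among Slc6a20a, Slc7a5 and Slc6a19. In SMOC2 normal kidneys the order ran Slc3a2 (127 CPM per kb), Slc7a7 (116), Slc7a9 (94.7), Slc7a8 (82.2), Slc6a19 (76.2), Slc6a20a (7.78), Slc7a5 (2.06) and Slc7a13 (1.70). Neighbours overlapped there except between Slc6a19 and Slc6a20a and between Slc6a20a and Slc7a5. In WT UUO kidneys the order was the same as in SMOC2 UUO kidneys, apart from Slc6a19 (5.02 CPM per kb) standing before Slc7a5 (4.84), and neighbours overlapped for Slc7a9 (22.1) and Slc7a8 (19) and among Slc6a20a (7.40), Slc6a19 and Slc7a5. In WT normal kidneys each of Slc7a7 (111 CPM per kb), Slc3a2 (104), Slc7a9 (87.2), Slc6a19 (80.9) and Slc7a8 (74.7) overlapped its neighbour. The last there were Slc6a20a (6.65), Slc7a13 (4.45) and Slc7a5 (2.02), again with overlap between neighbours. 

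**Figure D4:**
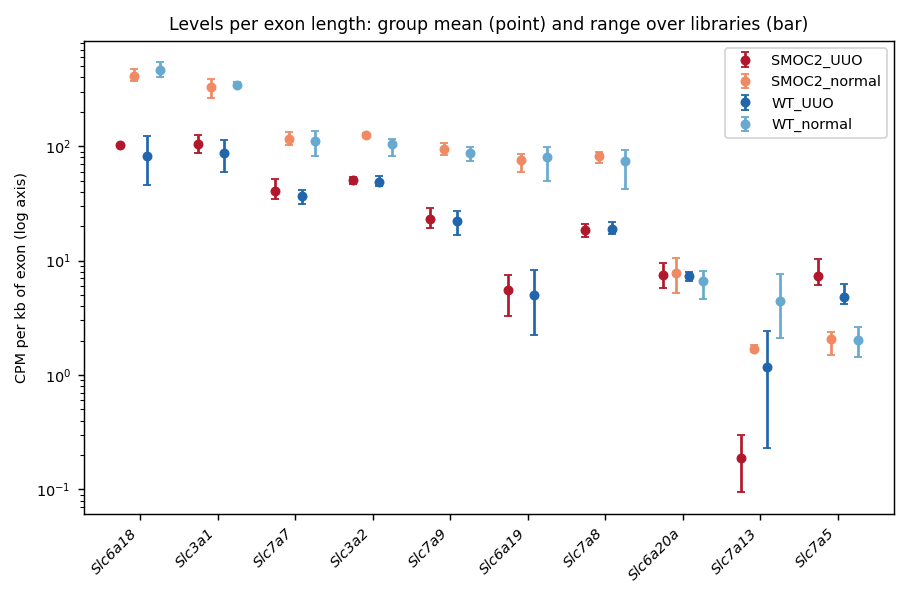
Mean CPM per kb of exon (points) and range over libraries (bars) for the 10 genes on a log axis, in the order SMOC2 UUO, SMOC2 normal, WT UUO and WT normal within each gene. Slc6a18 and Slc3a1 are highest in each group, and the range of Slc6a19 meets that of Slc6a20a after UUO.

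As a share of the summed CPM per kb of the 10 genes, Slc6a19 made up 1.5% ± 0.556 in SMOC2 UUO, against 6.05% ± 0.625 in SMOC2 normal, and 1.54% ± 0.496 in WT UUO, against 6.28% ± 1.95 in WT normal kidneys (SD, n = 4 UUO and 3 normal). Slc7a5 made up 2.07% ± 0.661 in SMOC2 UUO, against 0.165% ± 0.045 in SMOC2 normal, and 1.60% ± 0.374 in WT UUO, against 0.157% ± 0.0454 in WT normal kidneys. The share of Slc3a1 was 28.7% ± 2.70 in SMOC2 UUO, against 26.4% ± 2.55 in SMOC2 normal, and 27.4% ± 2.11 in WT UUO, against 26.9% ± 0.442 in WT normal kidneys. The heavy chain of the cystine transporter thus kept about its share of the set, while the sodium-driven carrier Slc6a19 lost share and Slc7a5 gained it. Other members moved too. Slc3a2 made up 14.2% in SMOC2 UUO, against 10.2% in normal, and 16.15% in WT UUO, against 8.07% in normal kidneys. Slc6a20a made up 2.08%, against 0.61%, in SMOC2 and 2.50%, against 0.516%, in WT kidneys. Slc6a18 averaged less after UUO (28.5%, against 33.1%, in SMOC2 and 25.1%, against 36.6%, in WT kidneys), with overlapping libraries.

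Set against the mean log2 CPM of the 24 proximal tubule markers, 8 of the 10 members lay higher in UUO than in normal kidneys in both genotypes, that is all but Slc6a19 and Slc7a13. Since these markers fell and the median log2 fold change over all genes was 0.04 in SMOC2 and 0.05 in WT kidneys, an unchanged gene also lies higher here. The share of all genes doing so was not counted. Slc6a18 libraries overlapped in WT kidneys, at 1.20 to 1.82 in UUO and 0.853 to 1.35 in normal. Slc7a13 was lower in SMOC2 UUO (-8.61, against -8.19) and higher in WT UUO (-6.18, against -6.90), with overlap in both. Slc3a1 lay 0.62 above the marker mean in SMOC2 UUO, against -0.52 in SMOC2 normal, and at 0.62 in WT UUO, against -0.35 in WT normal kidneys. Slc7a9 lay at -1.31 in SMOC2 UUO, against -2.08 in SMOC2 normal, and at -1.09 in WT UUO, against -2.10 in WT normal kidneys. Slc6a19 went the other way, at -2.56 in SMOC2 UUO, against -1.5 in SMOC2 normal, and at -2.46 in WT UUO, against -1.36 in WT normal kidneys. Its libraries did not overlap in either genotype on this scale, with UUO at -3.15 to -2.22 in SMOC2 and -2.89 to -2.24 in WT kidneys, against -1.72 to -1.38 and -1.93 to -1.01 in normal libraries. These differences are a description, with no test.

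Between the genotype labels edgeR called no member, and DESeq2 called Slc7a13 in obstructed kidneys. In obstructed kidneys, SMOC2 UUO against WT UUO, 0 of the 10 genes passed the adjusted threshold in edgeR, beside 0.831% of all genes tested (149 genes; 0.558% higher and 0.273% lower). At an unadjusted p under 0.05 there were 2 of the 10, Slc7a13 and Slc7a5, and 2716 of all genes. DESeq2 called 1 of the 10, Slc7a13, and 757 genes in all. In edgeR, leaving out SMOC2 UUO replicate 1, 2 or 3 gave 71, 29 and 45 genes in all, and leaving out WT UUO replicate 1, 3 or 4 gave 64, 70 and 63. The median log2 fold change of the 10 was 0.10, beside -0.01 over all genes tested. In edgeR, Slc7a13 had a log2 fold change of -2.59 (SE 0.681, adjusted p = 0.0889), and in DESeq2 -2.62 (adjusted p = 0.00172). SMOC2 UUO library 2, with 0.634 CPM, lay above WT UUO library 3, with 0.495 CPM, so the groups overlapped, and without WT UUO replicate 4 the edgeR value was -1.96 (adjusted p = 0.217). WT UUO libraries 2 and 4, which carried most Slc7a13, also had the higher sums of proximal tubule markers, and the part of these in the difference was not tested. For Slc7a5 the log2 fold change was 0.61 (95% interval 0.15 to 1.07, adjusted p = 0.189), with overlapping libraries. No member was wholly higher or wholly lower in the SMOC2 UUO libraries, beside 5.42% and 4.43% of all genes. The other 8 genes had log2 fold changes between -0.03 (Slc7a8) and 0.32 (Slc6a18).

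In untreated kidneys, SMOC2 normal against WT normal, again 0 of the 10 genes passed in edgeR, beside 0.0279% of all genes tested (5 genes; 0.0223% higher and 0.00558% lower). At an unadjusted p under 0.05 there were 1 of the 10, Slc3a2, and 2299 of all genes, and DESeq2 called 172 genes, none of them a member. The edgeR count over all genes was 21 without SMOC2 normal replicate 1, 11 without WT normal replicate 2, 8 without WT normal replicate 3 and 8 without WT UUO replicate 1. Slc3a2 was higher in each SMOC2 normal library than in any WT normal library, at a log2 fold change of 0.29 (95% interval 0.03 to 0.55, adjusted p = 0.359). For Slc7a13 each SMOC2 normal library was lower than any WT normal library, at -1.39 (95% interval -2.81 to 0.04, adjusted p = 0.403), and at -0.75 without WT normal replicate 1. Over all genes, 8.84% lay wholly higher and 8.01% wholly lower in the SMOC2 normal libraries, so 1 such gene in each direction out of 10 is near the background. The other 8 members had log2 fold changes between -0.17 (Slc6a18) and 0.22 (Slc6a20a). Median log2 fold changes were 0.04 for the 10 genes and -0.004 over all genes tested.

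The difference between the genotypes in the response to UUO, tested as an interaction, was called in edgeR for 0 of the 10 genes and for 0 of all 17926 genes (0%). At an unadjusted p under 0.05 there were 0 members and 1154 genes in all, and DESeq2 called 25 genes and no member. In edgeR 2 genes were called without SMOC2 normal replicate 1, and 1 without SMOC2 normal replicate 4, WT normal replicate 1 or WT UUO replicate 1, 2 or 4. The members' interaction terms ran between -1.21 for Slc7a13 (95% interval -3.22 to 0.81) and 0.59 for Slc7a5 (95% interval -0.15 to 1.32). The intervals of Slc7a13, Slc7a5, Slc6a19 (-0.98 to 1.42) and Slc6a18 (-0.34 to 1.32) take in a difference of a whole log2 unit, so a difference of that size is not excluded for them.

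Beyond the 10 genes, 32 other amino acid and peptide transporters were listed and 30 were tested. After UUO 12 rose and 13 fell in SMOC2 kidneys, and 12 rose and 11 fell in WT kidneys, with median log2 fold changes of 0.10 and -0.17. Beside these, 32.5% of all genes tested rose and 30.4% fell in SMOC2 kidneys, and 31.3% rose and 29.8% fell in WT kidneys. By the smaller p of the SMOC2 and WT comparisons, the first 4 of the listed transporters that rose were Slc7a6, Slc7a2, Slc38a2 and Slc38a1. Slc7a2, the cationic amino acid carrier CAT2, averaged 30.6 ± 13.3 CPM in SMOC2 UUO, against 1.51 ± 0.653 CPM in SMOC2 normal, and 24 ± 7.07 CPM in WT UUO, against 1.62 ± 0.246 CPM in WT normal libraries (SD, n = 4 UUO and 3 normal; log2 fold changes 4.35 and 3.87). Slc7a6, the y+LAT2 light chain that pairs with 4F2hc and is the close relative of Slc7a7, averaged 25.1 ± 2.29 CPM in SMOC2 UUO, against 7.34 ± 0.601 CPM in SMOC2 normal, and 26.4 ± 3.45 CPM in WT UUO, against 9.55 ± 0.793 CPM in WT normal libraries, with log2 fold changes of 1.77 and 1.47. Slc7a11, the cystine-glutamate exchanger xCT and a further light chain of 4F2hc, named after its values were seen, rose with log2 fold changes of 2.14 and 2.87. So of the light chains of 4F2hc tested here, Slc7a5, Slc7a6 and Slc7a11 rose and Slc7a7 and Slc7a8 fell. The small neutral amino acid carriers Slc38a2 (1.33 in SMOC2 and 1.22 in WT kidneys) and Slc38a1 (2.0 and 1.09) also rose. Slc36a2, a proton-coupled carrier of proline and glycine named after its values were seen, averaged 2.11 ± 0.85 CPM in SMOC2 UUO, against 0.162 ± 0.133 CPM in SMOC2 normal, and 2.08 ± 0.785 CPM in WT UUO, against 0.113 ± 0.0727 CPM in WT normal libraries, with log2 fold changes of 3.61 and 4.08. Its normal levels were near the floor, so the size of these changes is uncertain. The lowest were 0.0626 CPM in SMOC2 normal and 0.0559 CPM in WT normal libraries, each the level of 1 count.

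By the same order, the first of those that fell, beside Slc6a20b, were Slc6a17, Slc43a2 and Slc15a2. Slc15a2, the peptide carrier PEPT2 of the brush border, averaged 85.6 ± 16.9 CPM in SMOC2 UUO, against 285 ± 11.6 CPM in SMOC2 normal, and 60 ± 18.9 CPM in WT UUO, against 303 ± 51.3 CPM in WT normal libraries. Its log2 fold changes were -1.73 and -2.34. Slc43a2, the branched-chain and aromatic amino acid carrier LAT4, changed by -1.06 and -1.33, and Slc6a17 by -1.39 and -1.43. All the changes named in this and the preceding paragraph as rises or falls had edgeR adjusted p of 0.00223 or less.

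**Figure D5:**
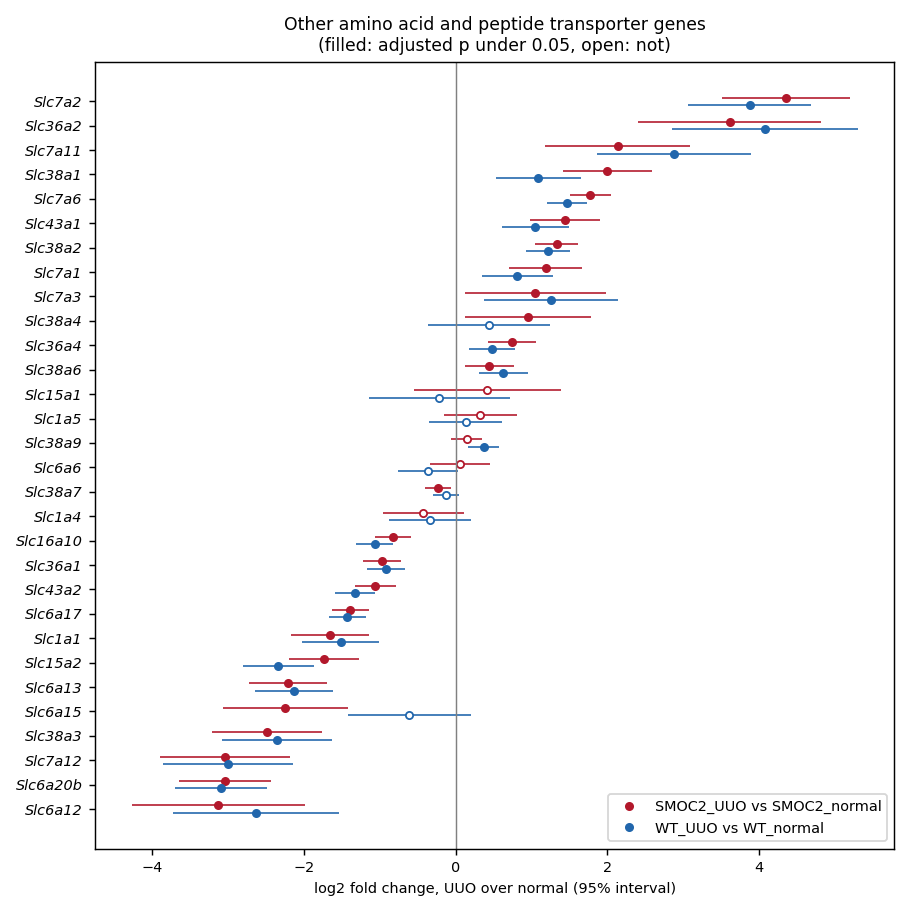
Log2 fold change of UUO over normal with 95% interval for the 30 other transporters tested, SMOC2 kidneys drawn above WT kidneys and filled points called at an adjusted p under 0.05. Slc7a2 and Slc36a2 lie farthest right in both genotypes, and Slc6a12, Slc6a20b and Slc7a12 lie left of -2.

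Of 18 listed genes of the cellular response to amino acid shortage and of serine and proline synthesis, 10 rose and 3 fell in SMOC2 and likewise 10 rose and 3 fell in WT kidneys, with median log2 fold changes of 1.14 and 0.96. Of all genes tested, 32.5% rose and 30.4% fell in SMOC2 kidneys, and 31.3% and 29.8% in WT kidneys. Slc7a5 is itself known as a target of the response to amino acid shortage. The 4 listed genes with the smallest p in either genotype were Shmt2, Myc, Aldh18a1 and Ddit4. Shmt2, a mitochondrial serine enzyme, fell by 2.29 in SMOC2 and 2.14 in WT kidneys on the log2 scale, while Myc (2.75 and 2.90), the proline enzyme Aldh18a1 (2.59 and 2.18) and Ddit4 (1.90 and 2.10) rose. Their adjusted p in edgeR was 2.23e-06 or less. RNA of Atf4, the factor at the head of the response, was not called, at 0.12 (adjusted p = 0.327) in SMOC2 and 0.23 (adjusted p = 0.0696) in WT kidneys. ATF4 protein was not measured, so these values do not speak of its activity.

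The genes most like each member over the 14 libraries were taken as those with the smallest root-mean-square difference in log2 CPM after each profile was centred on its own mean. Closest of all was Tesk2 to Slc3a2, at 0.10, followed by Mthfd1 to Slc7a9, at 0.11. Slc7a9 was next followed by Slc25a15 (0.13), Slc3a2 by Arhgap10 (0.12), Slc7a7 by Xylt1 and Ces2g (0.15 each), Slc3a1 by Ghr (0.17) and Atp6v0a4 (0.17), and Slc6a18 by Ggt1 (0.20) and Slc27a2 (0.20). Slc7a8 was nearest to Pdzd2 (0.21) and Tln2 (0.21), Slc6a19 to Chrna4 (0.26) and Car14 (0.28), and Slc7a5 to Tnfrsf4 (0.26) and Myh9 (0.27). Slc6a20a was nearest to Tnfsfm13 (0.18) and 1810012K08Rik (0.22), whose mean log2 CPM was 0.87 and 0.3. No gene followed Slc7a13 closely, with Aqp4 at 0.74 and Ralyl at 0.81. Ggt1 and Slc27a2 are also on the list of proximal tubule markers. These profiles share the same libraries and the same split between UUO and normal, so likeness is a description.

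Some counts may hold reads of other genes, since the sources used here do not give the strand setting of the counting. Slc3a1 shares 601 exon bases with Prepl on the opposite strand and 24.8% of its 50-base stretches with it. Prepl itself stood at 56.7 to 68.5 CPM in SMOC2 UUO, against 130 to 154 CPM in SMOC2 normal, and at 49.2 to 66.1 CPM in WT UUO, against 148 to 154 CPM in WT normal libraries. Slc7a7 shares 232 exon bases with Oxa1l on the opposite strand, which stood at 72.6 to 82.3 CPM in SMOC2 UUO, against 115 to 121 CPM in SMOC2 normal, and at 77.0 to 91.2 CPM in WT UUO, against 102 to 112.5 CPM in WT normal libraries. Slc6a20a shares 607 exon bases with 3 genes on the opposite strand, Gm17120, Gm17200 and Ccr9, of which the highest, Ccr9, stayed at or under 1.66 CPM in every library. No other member shares exon bases with another gene in this annotation.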

How the data were processed

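Whole-kidney messenger RNA was measured in 14 libraries. The authors deposited raw counts per gene, whole numbers without normalization, for 47729 Ensembl genes. Per the submitters' processing notes, STAR 2.4.1d, featureCounts 1.4.4 (Subread) and the build mm10 were used. No strand setting or annotation is given in the sources used here. GENCODE M21 (GRCm38) named 47310 of the genes, and the other 419 held 0.0288% of counts.

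Libraries were grouped by the genotype and treatment labels. Each library was counted as 1 sample. Replicates differed by more than sampling noise (at least 16.9 as chi-square per gene). Technical spread can give this too, so it does not show that each library is its own animal. In R 4.3.3, edgeR 4.0.16 (filterByExpr, trimmed mean of M-values, glmQLFit and glmQLFTest) fitted 4 group means over all 14 libraries, which share one estimate of spread, for 5 comparisons. Benjamini-Hochberg adjusted p-values cover all 17926 genes tested, with a threshold of 0.05. CPM use scaled library sizes, and per kb the union of exons. Ratios used a prior count of 0.5 and exact permutation within genotype. The steps were tested on simulated data.

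The members and gene lists were chosen with earlier results of these data known. Named beside the 10 members were up to 4 risen and 4 fallen other transporters and 4 amino acid response genes by smallest p in either UUO comparison, the partner Cltrn, Smoc2 and the 2 most alike genes per member. Other settings tried were upper-quartile or median-ratio scaling, a filter of 50 counts in 3 libraries or none, limma-voom (limma 3.58.1), DESeq2 1.42.0, the replicate number as a block, a prior count of 5, only the libraries compared, and each library left out. Reads carry no molecular identifiers, so depth speaks of counting error only.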

Additional observations from a re-analysis of the deposited data

Results flagged for a closer look

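One value stood far from its group. Slc7a5 in SMOC2 UUO kidneys was at 38.5, 23.5, 22.8 and 24.8 CPM, and the gap of library 1 to the nearest of the others made up 0.874 of the group's range, above Dixon's critical value for 4 libraries at the 95% level. Chance alone gives this in about 1 of 20 such groups, and 20 groups were examined here. Without that library the change of Slc7a5 with UUO in SMOC2 kidneys was 1.64 on the log2 scale and still called by edgeR (adjusted p = 4.22e-05). In the same library the proximal tubule markers had their lowest sum of the group, 5552 CPM, against 6931, 8616 and 8085 CPM in the other libraries, and its macrophage markers summed to 2009 CPM, within the 1570 to 2425 CPM of the group. The part of either in the value was not tested.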

How the results depend on the processing

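The 9 members called in SMOC2 kidneys and the 9 in WT kidneys were called under every alternative other than leaving out a library, where the count was 9 in SMOC2 and 8 to 9 in WT kidneys. Upper-quartile scaling moved the median log2 fold change of all genes to 0.152 in SMOC2 and 0.157 in WT kidneys, against 0.036 and 0.045 as reported. It gave Slc6a20a a change of 0.075 in SMOC2 kidneys, the other way round from the value reported. Leaving out each library gave -0.27 to 0.23 and -0.050 to 0.32 for Slc6a20a after UUO in SMOC2 and WT kidneys. The cause of the differences between settings was not tested.

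Counts between the genotypes moved more. SMOC2 normal against WT normal gave 12 genes with no filter, 172 with DESeq2, 9 with limma-voom, 8 with only the libraries compared, and 4 to 21 with each library left out. SMOC2 UUO against WT UUO gave 757 genes with DESeq2, of which 1 was a member, 232 with limma-voom, 39 with only the libraries compared, and 29 to 158 with each library left out (29 without SMOC2 UUO replicate 2). The interaction gave 1 gene with no filter, 25 with DESeq2 and 0 to 2 with each library left out. Member values that changed sign with a library left out, none of them called, ranged as follows. For SMOC2 normal against WT normal, Slc3a1 ran -0.17 to 0.098, Slc6a19 -0.34 to 0.076, Slc6a20a -0.055 to 0.45, Slc7a5 -0.17 to 0.26, Slc7a7 -0.12 to 0.22 and Slc7a8 -0.15 to 0.33. For SMOC2 UUO against WT UUO, Slc6a19 ran -0.11 to 0.47, Slc6a20a -0.11 to 0.14, Slc7a8 -0.098 to 0.043 and Slc7a9 -0.045 to 0.19. For the interaction, Slc6a19 ran -0.027 to 0.56, Slc6a20a -0.42 to 0.083, Slc7a7 -0.055 to 0.29, Slc7a8 -0.36 to 0.12 and Slc7a9 -0.16 to 0.070. With each library left out, the log2 ratio of Slc7a13 to Slc3a1 ran -1.12 to -0.68.

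Libraries that share a replicate number were little alike, which does not exclude a pairing in groups this small. Of 18 same-numbered pairs 1 had a correlation over 0.1 (range -0.092 to 0.103), and 4 of 14 libraries correlated best with their own number. With the replicate number as a block, 69 genes differed between SMOC2 UUO and WT UUO and 1 in the interaction. The block gave Slc6a20a 0.082 after UUO in SMOC2 kidneys, -0.009 between the normal groups and 0.023 in the interaction, Slc7a7 -0.041 between the normal groups and Slc7a9 0.073 in the interaction. The log2 ratio of Slc7a7 to Slc3a2 was -0.33 over same-numbered pairs (exact sign-flip permutation p = 0.0938).

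Among the members, depth limits Slc7a13 most, with as few as 5 counts in a library. The groups of 3 and 4 libraries limit the genotype comparisons, and fewer tubule cells, less RNA per cell and a changed mixture of cells cannot be told apart in whole kidney.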
